A study of Mus musculus with 6 samples.

Results

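The 7 genes of the Fos and Jun family were followed in kidney endothelial cells of mice with and without endothelial loss of Rbpj, the DNA-binding effector of canonical Notch signaling. The members were the rows of the deposited gene count table named Fos, Fosb, Fosl1, Fosl2, Jun, Junb and Jund. They were 7 of 55401 genes listed, and all 7 were among the 18438 genes with enough counts to be tested. RNA was sequenced from CD31+CD45- cells that had been enriched on magnetic columns and sorted by flow cytometry from digested kidneys of male mice. The RbpjΔEC group (3 libraries) carried 1 copy of CreERT2 driven by the Cdh5 promoter, which is active in endothelium of all organs, and floxed Rbpj on both alleles (Cre +/-; Rbpjf/f). The CTRL group (3 libraries) were Cre-negative littermates with the same floxed alleles (Cre -/-; Rbpjf/f), so that CreERT2 itself was present only in RbpjΔEC. Both groups received tamoxifen, 5 doses of 1.5 mg i.p. at 8 weeks of age, kidneys were taken 12 weeks after induction, and the labelled age was 21 weeks. The methods describe 3 biological replicates per group.

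Fos and Jun proteins are basic leucine zipper transcription factors that pair to form AP-1. Fos-type proteins (Fos, Fosb, Fosl1 and Fosl2) cannot pair stably with one another and need a Jun-type partner (Jun, Junb or Jund), which can also pair with its own kind. Most of the genes are immediate-early genes: their transcription starts within minutes of a stimulus without new protein synthesis, their mRNAs are short-lived, and they are known to respond to growth factors, shear stress and the handling of tissue. Jund is the member usually described as steadily expressed.

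The promoters of the 4 members that were both abundant and separated the groups are shown first, so that the sequence next to the start of the paralogs can be compared. RefSeq's promoter table (GRCm38.p6, 250 bases before to 50 after a start) had entries for 6 of the 7 members. The 150 bases around the RefSeq starts of Fos (chr12:85473760-85473909, plus strand), Fosb (chr7:19310026-19310175, minus strand), Jun (chr4:95052203-95052352, minus strand) and Junb (chr8:84978729-84978878, minus strand) are printed 5′ to 3′ on the gene's own strand. Capitals mark the strings whose letters and counts follow the sequences.
Fos: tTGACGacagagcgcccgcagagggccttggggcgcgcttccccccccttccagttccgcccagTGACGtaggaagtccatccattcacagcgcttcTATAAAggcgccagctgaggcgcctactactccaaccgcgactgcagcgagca
Fosb: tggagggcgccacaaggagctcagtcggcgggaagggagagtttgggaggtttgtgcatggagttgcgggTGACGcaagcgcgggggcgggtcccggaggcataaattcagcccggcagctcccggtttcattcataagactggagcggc
Jun: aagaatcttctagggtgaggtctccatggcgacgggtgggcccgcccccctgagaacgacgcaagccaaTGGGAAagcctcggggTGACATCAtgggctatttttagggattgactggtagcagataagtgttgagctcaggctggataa
Junb: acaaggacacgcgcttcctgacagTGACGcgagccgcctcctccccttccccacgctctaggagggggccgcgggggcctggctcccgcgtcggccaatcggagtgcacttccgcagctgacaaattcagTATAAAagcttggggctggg

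On both strands of the 6 windows of 300 bases, the full cAMP response element TGACGTCA had 0 matches (1.79% of 32851 promoters held it), the AP-1 site TGANTCA 0 (7.81%) and the CArG box of serum response factor 0 (1.63%). TGGGAA, the core of the RBPJ site, was found in 2 of the 6, in Jun at position -61 from the start and in Jund at -187 on the other strand, against 25.6% of all promoters. The RefSeq start used for Jund lies upstream of the gene model that starts at chr8 position 70698949, so its window is not next to the start of that model. The 150 bases printed for Junb, chr8:84978729-84978878, also lie upstream of its gene model, which starts at 84978718 on the minus strand. Positions in Junb are counted from the RefSeq start, not from that model. The shorter string TGACG, which the cAMP response element contains, stood in 3 of the 6 (20.8% of all promoters): in Fos at -129 and -66, in Fosb at -60 and in Junb at -106. The AP-1 variant TGACATCA stood in Jun alone among them, at -45 (3.62%), and TATAAA in Fos at -33 and in Junb at 1 (13.6%). These last 3 strings were chosen after the promoters had been read. A match is only a match of letters and shows no binding. Bases outside these windows were not searched. The 0 matches of the cAMP response element, AP-1 site and CArG box do not show whether such sites lie further upstream.

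The mRNA ends differed among the paralogs as well. AUUUA pentamers, written ATTTA in DNA, are the units of the AU-rich elements that are known to shorten the life of early-response mRNAs. The annotated 3′ UTR of Fos (815 bases) held 4 of them, or 4.91 per kb, that of Junb (485 bases) 2, or 4.12 per kb, and that of Jun (1233 bases) 4, or 3.24 per kb. Fosl2 had 8 in 4653 bases (1.72 per kb), and Fosb (2145 bases), Fosl1 (638 bases) and Jund (533 bases) had 1 each. Over 20758 genes the median was 1 pentamer and 1.16 per kb, and 37.3% had none. By density Fos, Junb and Jun led the family, with 8.26%, 12.1% and 19.2% of genes at least as dense.

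The 6 libraries held between 39649171 and 47726850 counts, which are given here as CPM, counts per 1000000 reads after TMM scaling. The control library CTRL 1 had counts on 33764 genes and the other 5 libraries on 25629 to 26785. Rbpj itself stood at 28.1, 29.7 and 29.8 CPM in CTRL and 28.9, 26.1 and 29.6 CPM in RbpjΔEC. Its groups overlapped, and since the floxed allele removes only some exons, a count summed over the gene does not check the labels. Hey1 and Jag1 of the Notch pathway did separate the groups. Hey1, a Notch target, had 16.7 to 22.6 CPM in CTRL and 8.92 to 14.6 CPM in RbpjΔEC (log2 fold change -0.76, adjusted p = 0.0722). Jag1, which encodes a Notch ligand, fell by 0.54 on the log2 scale (adjusted p = 0.0368, edgeR's quasi-likelihood test, adjusted by the method of Benjamini and Hochberg over all tested genes, as for every adjusted p here unless DESeq2 is named). The call of Jag1 was lost without CTRL 3, RbpjΔEC 1 or RbpjΔEC 2.

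The first question was whether the paralogs moved together. All 7 had a fitted level above CTRL, with a median log2 fold change of 0.46 against 0.0072 over all tested genes. Fos and Junb rose past the threshold of 0.05, so 2 of 7 members were called higher, against 0.575% of all tested genes (106 of 18438). None was called lower (0 before adjustment at 0.05 and 0 by DESeq2), against 0.559% of all genes. In 5 of the 7, Fos, Fosb, Jun, Junb and Jund, every RbpjΔEC library lay above every CTRL library, which held for 11.4% of all genes. DESeq2, another count test, called 4 of 7 higher (Fos, Fosb, Jun and Junb), against 2.35% of all genes. The calls depended on single libraries: without CTRL 1, CTRL 3, RbpjΔEC 1 or RbpjΔEC 2, 0 members passed, and without CTRL 2 or RbpjΔEC 3, 4 did. Calls over all genes moved as well. The first 4 of these fits called 17, 7, 8 and 18 genes higher, and the last 2 called 401 and 188, of 19021 to 19163 tested. An exact permutation test over 3 against 3 libraries cannot go below a two-sided p of 0.1, and Fos, Fosb, Jun, Junb and Jund all stood at that limit.

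**Figure D1:**
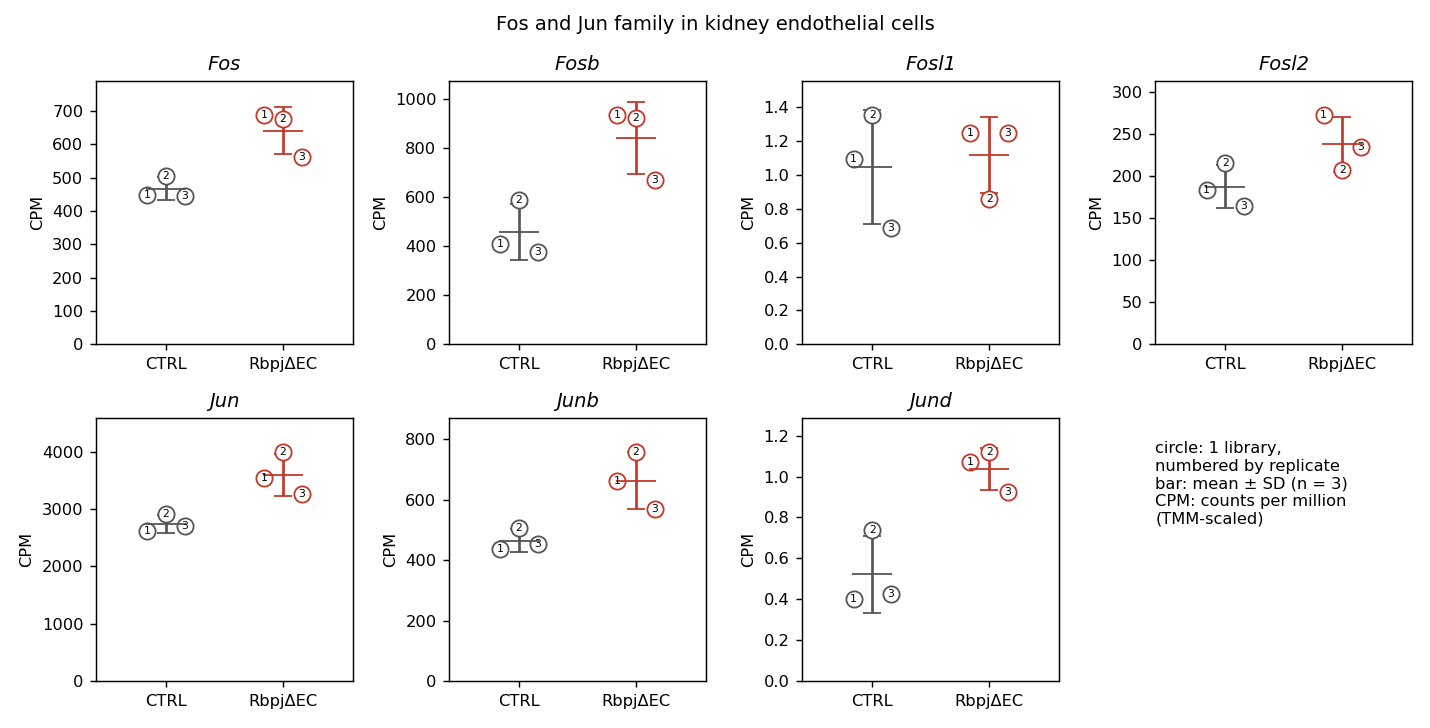
Each panel plots TMM-scaled CPM (linear axis from 0) of a member in 3 CTRL and 3 RbpjΔEC libraries, with numbered circles for libraries and bars for mean ± SD. In Fos, Fosb, Jun, Junb and Jund the RbpjΔEC circles lie above all CTRL circles, CTRL 2 is the highest CTRL circle in all 7 panels, and no library of Fosl1 or Jund exceeds 1.35 CPM.

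Among the Fos-type genes, Fos, the prototype of the family, had 448.6, 505.7 and 443.2 CPM in CTRL 1 to 3 and 686.6, 675.8 and 560.4 CPM in RbpjΔEC 1 to 3. The groups did not overlap, and the lowest RbpjΔEC library was 1.11 times the highest CTRL library. The means were 465.8 ± 34.6 and 640.9 ± 70.0 CPM (SD, n = 3), a log2 fold change of 0.46 (standard error 0.0911, 95% interval 0.26 to 0.66, adjusted p = 0.0398). Without 1 library in turn the change stayed between 0.41 and 0.55, and its adjusted p reached 0.18.

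Fosb, which also gives rise to the long-lived splice form known as ΔFosB, had the largest fitted log2 fold change of the 5 abundant members. Its CTRL libraries had 407.0, 587.8 and 377.4 CPM and its RbpjΔEC libraries 933.5, 920.9 and 671.0 CPM. No library of one group reached the other, yet the spread was wide, with 457.4 ± 113.9 CPM against 841.8 ± 148.1 CPM (SD, n = 3). The mean was 1.84 times that of CTRL, a log2 fold change of 0.88 (standard error 0.211, 95% interval 0.364 to 1.395), and it did not pass (adjusted p = 0.118). Without CTRL 2, the control library nearest to RbpjΔEC, the log2 fold change was 1.10 (adjusted p = 0.0154), and without RbpjΔEC 3, the nearest library on the other side, it was 1.02 (adjusted p = 0.0462). Counts per gene do not separate the FosB and ΔFosB mRNAs.

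Fosl2, which encodes Fra-2, had 183.1, 215.2 and 164.3 CPM in CTRL and 272.3, 207.1 and 234.7 CPM in RbpjΔEC. CTRL 2 lay above RbpjΔEC 2, so the groups overlapped. The log2 fold change of 0.34 (95% interval 0.08 to 0.61) did not pass (adjusted p = 0.178, and 0.0738 by DESeq2). Fosl1, which encodes Fra-1, was near the limit of what was counted, with 29 to 64 reads per library. It had 1.10, 1.35 and 0.687 CPM in CTRL and 1.25, 0.858 and 1.25 CPM in RbpjΔEC, which interleaved. The interval of its log2 fold change, -0.68 to 0.87 around 0.09, holds the values found for Fos and Junb, so that a change of their size could not be told from none (adjusted p = 0.918).

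Among the Jun-type genes, Jun was by far the most abundant. It had 2612, 2914 and 2705 CPM in CTRL and 3537, 3996 and 3265 CPM in RbpjΔEC. The groups were apart by a factor of 1.12 between the nearest libraries. The means of 2744 ± 155 and 3600 ± 369 CPM (SD, n = 3) gave a log2 fold change of 0.39 (standard error 0.0906, 95% interval 0.19 to 0.59). Jun just missed the threshold (adjusted p = 0.0622), and it passed by DESeq2 (adjusted p = 0.00205).

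Junb, whose protein can restrain Jun at some promoters, had 435.8, 506.4 and 452.8 CPM in CTRL and 661.7, 757.9 and 570.9 CPM in RbpjΔEC. Again no libraries of the 2 groups crossed. Its means were 465.0 ± 36.9 and 663.5 ± 93.5 CPM (SD, n = 3), a log2 fold change of 0.51 (standard error 0.103, 95% interval 0.29 to 0.74, adjusted p = 0.043). Leaving out single libraries gave 0.41 to 0.61, with an adjusted p of up to 0.184.

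Jund was listed with only 16, 35 and 18 reads in CTRL and 48, 47 and 37 reads in RbpjΔEC, or 0.399, 0.739 and 0.426 CPM against 1.07, 1.12 and 0.923 CPM. The RbpjΔEC libraries were the higher ones, with a log2 fold change of 0.98 whose 95% interval ran from 0.14 to 1.83 (adjusted p = 0.218). In the annotation, 52.6% of its single exon is covered on the other strand by the antisense gene Gm11175, which itself had 0 to 3 reads per library. The strand setting of the read counting is not given in the sources used here, and a read in a stretch shared by genes of both strands is usually dropped when strand is ignored. For Jund 877 of 1668 exonic bases are shared, so reads over its other bases would not be lost in this way. The part of the overlap in the low count of Jund was not tested, and the count is uncertain as a measure of its mRNA. The same holds for Fosl1, with 57.2% of its exons shared with Ccdc85b on the other strand (83.8 to 101.8 CPM), and to a lesser extent for Jun (7.28%, antisense gene Junos) and Junb (7.52%, Prdx2).

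**Figure D2:**
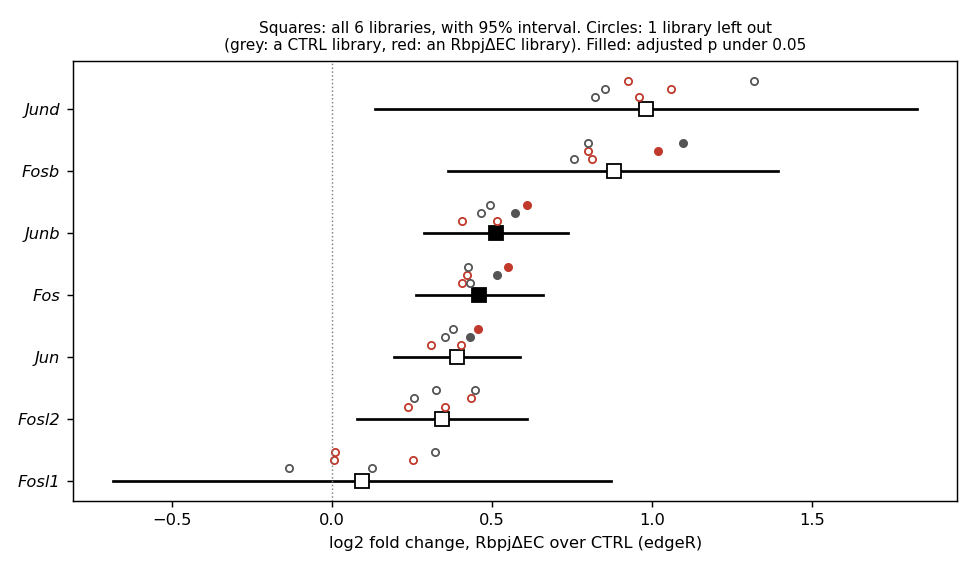
Log2 fold changes of RbpjΔEC over CTRL per member, as squares with 95% intervals over all 6 libraries and as circles with 1 library left out (grey for CTRL, red for RbpjΔEC). Only Fos (0.46) and Junb (0.51) have filled squares, the mark of an adjusted p under 0.05, and the circles of Fosl1 reach from -0.13 to 0.32.

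Levels were compared between paralogs only per kb of annotated exon. In CTRL, Jun stood at 860 ± 48.6 CPM per kb, Junb at 202 ± 16.01, Fos at 198 ± 14.7, Fosb at 73.3 ± 18.2, Fosl2 at 19.4 ± 2.66, Fosl1 at 0.514 ± 0.165 and Jund at 0.313 ± 0.113 CPM per kb (SD, n = 3). Junb and Fos did not differ beyond their spread, nor did Fosl1 and Jund, while every other step in this order exceeded it. The length was that of all annotated exons merged, 2301 bases for Junb, 2352 for Fos and 6243 for Fosb. Their longest principal transcripts have 1809, 2108 and 3782 bases. The steps, that of Junb and Fos included, depend on this choice, which the spread between libraries does not cover. In RbpjΔEC the order was the same down to Fosl2, and Jund at 0.622 ± 0.0614 lay within the spread of Fosl1 at 0.550 ± 0.111 CPM per kb. Among the 18411 tested genes with an exon length, Jun ranked between 12 and 18 by this level in the 6 libraries, Junb between 50 and 102, Fos between 55 and 107, Fosb between 123 and 476, and Fosl2 between 1256 and 2509. Endothelial cells of both genotypes thus carried Jun among their most abundant transcripts at the time of sorting.

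The family's total and several of its shares separated the groups. Its 7 genes took 0.402%, 0.469% and 0.405% of all counts in CTRL and 0.622%, 0.664% and 0.536% in RbpjΔEC. Per kb, Jun made up 62.32% to 64.68% of the family in CTRL and 59.39% to 62.31% in RbpjΔEC, and Junb 14.75% to 15.01% and 15.10% to 16.15%. Fosb made up 4.61% to 6.42% in CTRL and 6.54% to 8.01% in RbpjΔEC. The ranges of Jun (lower in RbpjΔEC), Junb, Fosb and Jund (higher) did not meet, those of Jun and Junb by a narrow margin, and those of Fos, Fosl1 and Fosl2 overlapped. The Jun-type sum was 3.42 to 3.93 times the Fos-type sum in CTRL and 2.97 to 3.47 times in RbpjΔEC, so these ratios overlapped.

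**Figure D3:**
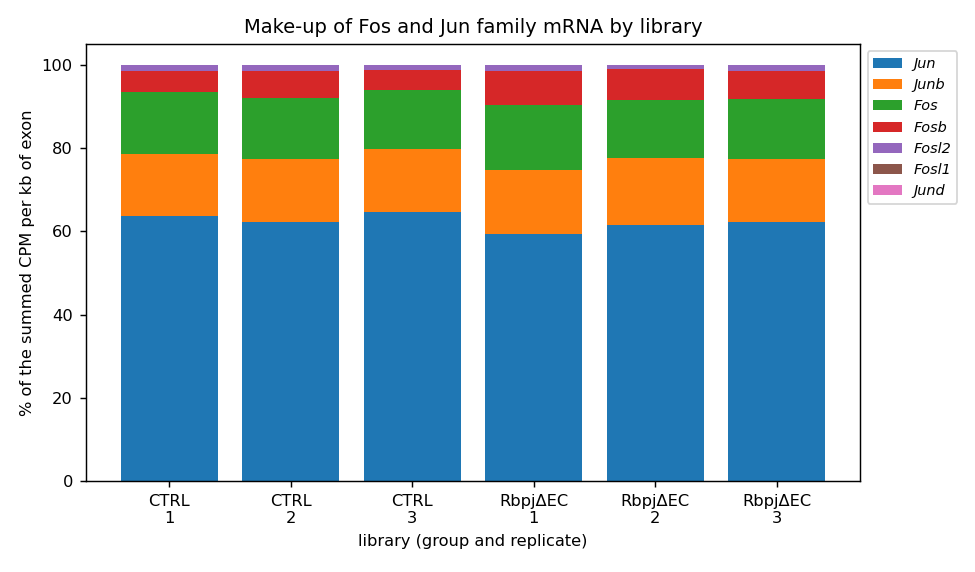
Stacked bars give each member's percent of the family's summed CPM per kb of exon in each of the 6 libraries. Jun fills 59.4% to 64.7% of every bar, Fosb is 4.61% to 6.42% in CTRL and 6.54% to 8.01% in RbpjΔEC, and Fosl1 and Jund are too small to be seen.

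Ratios between members within a library do not depend on scaling, and all 21 pairs were compared. Fosb had 0.156, 0.202 and 0.140 reads per read of Jun in CTRL and 0.264, 0.231 and 0.206 in RbpjΔEC. Against Junb, Fosb stood at 0.934, 1.16 and 0.834 in CTRL and 1.41, 1.22 and 1.18 in RbpjΔEC. Fosb thus stood higher relative to Jun and Junb in every RbpjΔEC library than in any CTRL library, while its ratio to the sparse Jund, 900.2 ± 113.2 in CTRL and 806.8 ± 73.8 in RbpjΔEC (SD, n = 3), overlapped. The other 5 members all had fewer reads per read of Jund in RbpjΔEC, without overlap, and Fosb had more per read of Fosl2. In all, 10 of the 21 ratios did not overlap between groups, but the ratios share 7 genes and are not independent. The ratio of Fos to Fosb was lower in RbpjΔEC, with 1.05 ± 0.164 in CTRL and 0.768 ± 0.058 in RbpjΔEC (SD, n = 3). Jun to Junb was slightly lower too, with 5.91 ± 0.132 against 5.45 ± 0.24 (SD, n = 3). Fos to Junb, at 1.00 ± 0.0255 and 0.970 ± 0.0736 (SD, n = 3), and Fos to Jun, at 0.170 ± 0.00516 and 0.178 ± 0.0138 (SD, n = 3), overlapped between groups. The non-overlapping ratios each had an exact two-sided permutation p of 0.1, the smallest possible, and 0.21 after Benjamini-Hochberg adjustment over the 21 pairs. With 3 against 3 libraries this test could not pass 0.05, so it does not show whether the ratios differ.

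Within the groups, the abundant members shared their highest CTRL library, though not the full order of the libraries. CTRL 2 was the highest CTRL library for Fos, Fosb, Fosl2, Jun and Junb, by 0.36 above the CTRL mean for Fosb and by 0.09 to 0.20 for the others on the log2 scale. RbpjΔEC 3 was the lowest RbpjΔEC library for Fos, Fosb, Jun and Junb, at 0.25 to 0.55 above the CTRL mean, where RbpjΔEC 1 and 2 were at 0.37 to 1.03. Fosl2 had its lowest RbpjΔEC value in replicate 2, and the highest RbpjΔEC library was replicate 1 for Fos, Fosb and Fosl2 and replicate 2 for Jun and Junb. CTRL 2 was also the CTRL library with the highest sum of heat shock genes (6979 CPM against 5094 and 5477) and of other immediate-early genes (8202 CPM against 6982 and 6932). RbpjΔEC 3 was not the lowest RbpjΔEC library in either sum, with 7916 CPM of heat shock genes against 7355 in RbpjΔEC 1 and 8606 CPM of other immediate-early genes against 8362.

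**Figure D4:**
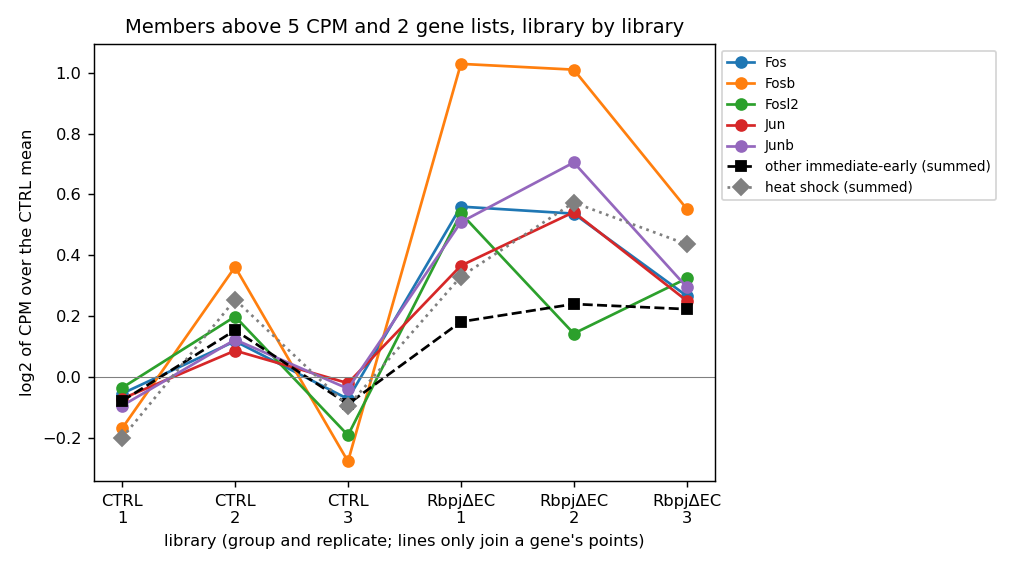
Each point is the log2 of a library's CPM over the CTRL mean, for the 5 abundant members and the summed CPM of the other immediate-early and heat shock lists. CTRL 2 is the highest CTRL library in every series, Fosb spans the widest range (-0.28 to 1.03), and all RbpjΔEC points are above 0.

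Gene lists from the wider AP-1 pathway were then read beside the members. Of 12 tested bZIP partners of Fos and Jun, 1 was called higher and 0 lower (6 and 0 before adjustment at 0.05, 3 and 0 by DESeq2), with a median log2 fold change of 0.32. The called gene was Atf3, a stress-induced partner of Jun, with 125.9, 165.7 and 123.7 CPM in CTRL and 209.1, 199.3 and 201.5 CPM in RbpjΔEC (log2 fold change 0.55, adjusted p = 0.0387). Without CTRL 1, CTRL 3, RbpjΔEC 1 or RbpjΔEC 2, 0 partners were called, and the adjusted p of Atf3 reached 0.163. With 1 library left out the partners' median ranged from 0.19 (RbpjΔEC 3) to 0.41 (CTRL 2). Atf4, the effector of the integrated stress response, had a log2 fold change of 0.35 (adjusted p = 0.0729) and the small Maf protein gene Mafk one of 0.23 (adjusted p = 0.174). Neither passed, although their groups did not overlap.

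The kinases and transcription factors upstream were spread around no change. Of 19 tested genes of the MAP kinase cascades, 0 were called in either direction (2 higher and 3 lower before adjustment at 0.05, 0 and 2 by DESeq2), with a median log2 fold change of -0.01. Mapk3, which encodes ERK1, had 158.2 to 188.7 CPM in CTRL and 134.1 to 137.7 CPM in RbpjΔEC (log2 fold change -0.32, adjusted p = 0.0664), and Rps6ka3, which encodes the ERK-activated kinase RSK2, had a log2 fold change of -0.25 (adjusted p = 0.0998). These lay below CTRL in every library, opposite in sign to the members, and did not pass. Map3k1, upstream of JNK, and Mapk7, which encodes ERK5, had 0.25 and 0.28 (adjusted p = 0.167 and 0.191). Of 13 factors that act on the Fos and Jun promoters, 0 were called (1 higher and 0 lower before adjustment at 0.05, 1 and 0 by DESeq2), with a median of -0.04. Srf, the serum response factor, came nearest, with 45.0 to 49.0 CPM in CTRL and 56.8 to 62.8 CPM in RbpjΔEC (log2 fold change 0.33, adjusted p = 0.060). Its partner gene Elk1 had 0.16 and Atf1 0.13, while Mef2a had -0.11 (adjusted p of 0.44, 0.506 and 0.455). Of 13 genes that set the turnover of the mRNAs or proteins, 0 were called (1 higher and 0 lower before adjustment at 0.05, 1 and 0 by DESeq2). Zfp36, which encodes the AU-rich element binding protein TTP and is an early-response gene itself, had 329.8, 372.3 and 300.1 CPM in CTRL and 448.3, 450.7 and 375.8 CPM in RbpjΔEC (log2 fold change 0.35, adjusted p = 0.101). The related Zfp36l2 had 0.18, and Men1, whose product menin binds JunD, -0.22 (adjusted p of 0.296 and 0.383).

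Textbook AP-1 targets were spread on both sides of no change. Of 17 listed, 13 were tested, 7 with a positive and 6 with a negative change and a median log2 fold change of 0.03. The 1 called gene was Hbegf, an EGF receptor ligand, with 105.2, 138.0 and 131.3 CPM in CTRL and 163.7, 170.8 and 178.8 CPM in RbpjΔEC (log2 fold change 0.46, adjusted p = 0.0496). With a library left out, Hbegf passed only without CTRL 2, and its adjusted p reached 0.155. Ccnd1, the cyclin of G1 phase, had -0.29, Cd44 -1.63 and Edn1, which encodes the vasoconstrictor endothelin-1, -0.45 (adjusted p of 0.212, 0.213 and 0.315). Cd44 rested on 3.04 CPM in CTRL 1 and under 1 CPM in every other library.

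Several other immediate-early genes rose beside the members. Of 39 tested, 8 were called higher and 0 lower (22 and 0 before adjustment at 0.05, 17 and 0 by DESeq2), 19 had every RbpjΔEC library above every CTRL library, and the median log2 fold change was 0.36. Dusp5, a nuclear phosphatase of ERK, had 10.0, 10.3 and 8.998 CPM in CTRL and 17.6, 20.9 and 20.6 CPM in RbpjΔEC (log2 fold change 1.01, adjusted p = 0.00427). Egr3 rose by 1.00, Nfkbiz by 0.88, Egr1 by 0.66, Btg2 by 0.58, Ppp1r15a by 0.46 and Ier2 by 0.40 on the log2 scale (adjusted p between 0.0065 and 0.0444), and Atf3, given above, is on this list too. Without CTRL 1, RbpjΔEC 1 or RbpjΔEC 2, 2 of the list were called, without CTRL 3 only 1, and without CTRL 2 or RbpjΔEC 3, 11 and 14. Dusp5 passed in all 6 of these fits and Egr1 in all except that without CTRL 3 (adjusted p = 0.0597), while the other 6 genes, Atf3 included, lost their call without CTRL 1, CTRL 3, RbpjΔEC 1 or RbpjΔEC 2, as Fos and Junb did. The list also shares Maff with the partners and Zfp36 with the turnover genes. Among 13 heat shock genes, which like the immediate-early genes are known to be induced when tissue is taken apart into single cells, 0 were called (9 higher and 0 lower before adjustment at 0.05, 6 and 0 by DESeq2), all 13 had a positive change and the median was 0.42. Of this list 6 were called without CTRL 2, 6 with a replicate block and 7 with no filter on low counts. Leaving out any of the other libraries gave 0 calls. The median was 0.27 without CTRL 1 and 0.49 without CTRL 2, the lowest and highest of these fits. Hspa1a had 350.1, 519.1 and 463.6 CPM in CTRL and 632.3, 802.4 and 704.2 CPM in RbpjΔEC (log2 fold change 0.68, adjusted p = 0.0738). Hspa1b had 0.70, Dnajb1 0.50 and Dnajb4 0.28 (adjusted p of 0.084, 0.0934 and 0.0982). Their summed level was 5094 to 6979 CPM in CTRL and 7355 to 8705 CPM in RbpjΔEC, without overlap, as it was for the members, and its part in the members' change was not tested.

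**Figure D5:**
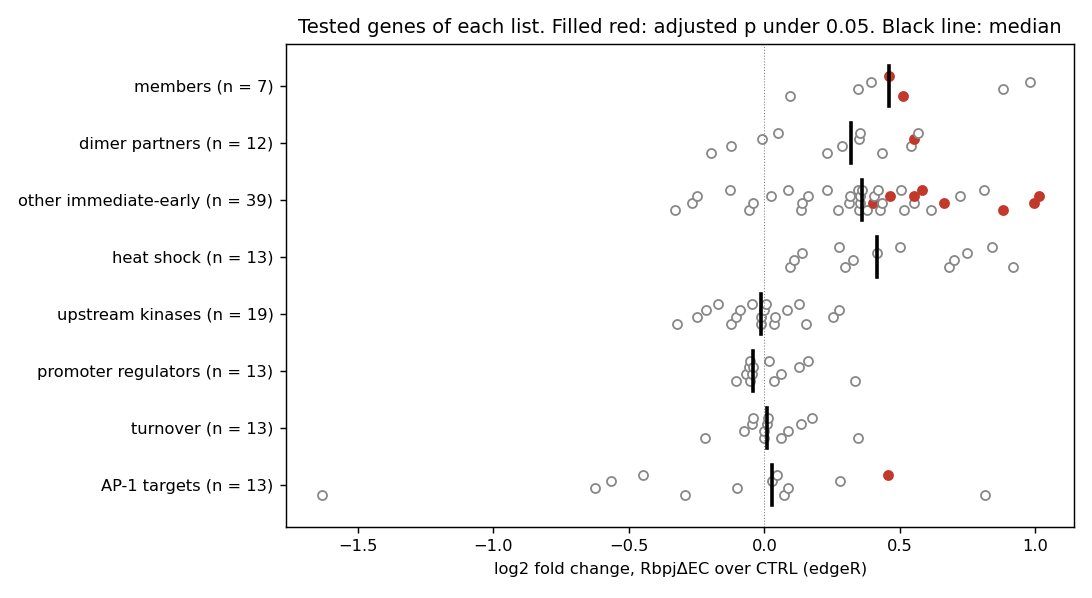
Each circle is the log2 fold change of RbpjΔEC over CTRL of a tested gene, by list, filled red where the adjusted p is under 0.05, with a black line at the list's median. The medians of members (0.46), heat shock (0.42), other immediate-early (0.36) and dimer partners (0.32) lie right of 0, and those of upstream kinases, promoter regulators, turnover and AP-1 targets between -0.04 and 0.03.

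The cell type of the libraries was read from marker genes. All 12 endothelial markers were tested and present, with Cdh5 at a mean of 1823 CPM in CTRL and 1594 CPM in RbpjΔEC, and their summed level was 25150 to 28140 CPM in CTRL and 23090 to 23930 CPM in RbpjΔEC (0 called, and 1 higher and 4 lower before adjustment, 4 lower by DESeq2). Mural cell markers summed to 96.6 to 124.4 CPM and 63.6 to 71.3 CPM, with 3 of 9 tested (Acta2, Myh11 and Rgs5) called lower and 0 higher, and 7 lower and 1 higher by DESeq2. With a minimum mean of 1 CPM only Acta2 kept its call. The higher one was the pericyte gene Kcnj8, whose libraries did not overlap (log2 fold change 0.93, adjusted p = 0.162, and 0.00195 by DESeq2). Fibroblast markers were at 4.63 to 7.08 CPM and 1.54 to 2.92 CPM with 1 of 3 tested (Pdgfra) called lower, and lymphocyte markers were at or below 1.10 CPM in sum, with Cd3e and Cd3d at 0 in all libraries. Macrophage markers summed to 23.4 to 29.0 CPM in CTRL and 32.1 to 38.0 CPM in RbpjΔEC, but 6 of 7 tested had a negative change, with a median log2 fold change of -0.97 (0 called lower, 2 by DESeq2), and the higher sum came from Cd68, with means of 9.97 and 24.1 CPM (log2 fold change 1.27, adjusted p = 0.0154). The median of the macrophage list was -0.17 without CTRL 1 and -1.62 without CTRL 2, so its size depended on single libraries. Ptprc, the gene of CD45, had 2.59 and 0.957 CPM as group means. Tubule markers summed to 534.3 to 646.4 CPM in CTRL and to 297.4, 310.2 and 604.0 CPM in RbpjΔEC 1 to 3. Of the 9 tested, 4 had a positive and 5 a negative change, with a median log2 fold change of -0.67 and 0 called (0 higher and 2 lower before adjustment, 0 and 1 by DESeq2), and the distal and collecting duct genes Aqp2 (-2.77), Slc12a1 (-1.25) and Umod (-1.19) were below CTRL in every RbpjΔEC library. The size of the change of Aqp2 leaned on CTRL 1, with 9.58 CPM there and 2.68 and 2.23 CPM in CTRL 2 and 3. RbpjΔEC 3 stood apart in the proximal tubule gene Lrp2, with 129.2 CPM against 29.2 and 29.0 CPM in RbpjΔEC 1 and 2. It was also the RbpjΔEC library with the lowest Fos, Fosb, Jun and Junb, without which 4 members were called. That is 1 library, whose tubule sum lay within the CTRL range, and a link was not tested. The podocyte list, carried by Podxl, which endothelium expresses as well, was at 3184 to 3564 CPM and 2591 to 2859 CPM. The endothelial and mural sums were lower in every RbpjΔEC library, opposite to the members, and the part of cell make-up in the members' change was not tested. In bulk libraries fewer cells with a transcript and less of it per cell cannot be told apart.

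The annotated neighbours of the members were read in the same fit. Gm26802, 1925 bp downstream of Fosb on the same strand, had 140, 232 and 61 reads in CTRL and 316, 298 and 403 in RbpjΔEC (log2 fold change 1.29, adjusted p = 0.158). Gm12703, 663 bp downstream of Jun on the same strand, had 10.1, 15.6 and 9.35 CPM in CTRL and 19.0, 15.4 and 16.7 CPM in RbpjΔEC (log2 fold change 0.54, adjusted p = 0.174). Junos, on the strand opposite to Jun, had 0.36 (adjusted p = 0.118). These 3 had the sign of their neighbour, and transcripts running on from Fosb or Jun would be counted under Gm26802 or Gm12703, which a count table cannot tell apart. Around Junb, Hook2 had 0.55 (adjusted p = 0.094) and Rnaseh2a 0.34 (adjusted p = 0.186), while Prdx2, whose end overlaps Junb on the other strand, had -0.21 (adjusted p = 0.245). Gm10463, 2629 bp upstream of Fosl2 on the other strand, had 0.60 (adjusted p = 0.232), and n-R5s189, the 5S rRNA pseudogene upstream of Jun, had 6 to 34 reads (log2 fold change 1.35, adjusted p = 0.195). Fibp next to Fosl1 (0.03), Ccdc85b across it (0.07) and Lsm4 next to Jund (-0.21) did not pass either (adjusted p of 0.907, 0.754 and 0.609). The nearest genes of Fos, Gm40477 and Gm32296, had 0 to 3 reads, and D830036C21Rik by Fosb (1 to 12 reads), Gm31070 by Fosl1, Gm26335 by Fosl2 and Iqcn by Jund were too low to be tested.

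The genes whose pattern over the 6 libraries came nearest to a member were found by the root-mean-square difference of log2 CPM, each centred on its mean, among 10441 other tested genes with a mean of at least 5 CPM (10442 for Fosl1 and Jund, which are below that level). For Jun they were Socs2, a cytokine-induced inhibitor of JAK-STAT signaling, and Pced1a, at 0.02 and 0.03 log2 units (root mean square). For Fos they were Nemp1 (0.04) and Gm42929 (0.05), for Junb Btg1 (0.04), an antiproliferative gene with 204.3 ± 14.0 CPM in CTRL and 283.8 ± 42.6 CPM in RbpjΔEC (SD, n = 3), and Fam131a (0.05). Fosb was nearest to Gm19972 and Gm12946 (0.11 and 0.12), Fosl2 to Sec61a2 and Atp6v1g2 (0.05 and 0.05), Fosl1 to 4732471J01Rik and Gm43788 (0.09 and 0.12), and Jund to Egr3 and 4833445I07Rik (0.09 and 0.10). No member was among the nearest genes of another. With 6 libraries and this many genes close matches are bound to occur.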

How the data were processed

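RNA of sorted kidney endothelial cells was made into libraries with a strand-marking total RNA kit (SMARTer Stranded Total RNA-Seq, Pico Input) and sequenced in a common run. The authors trimmed reads with Trim Galore 0.6.4, aligned them with STAR 2.6.1d to GRCm38.p6 and deposited whole-number counts per gene from featureCounts (Subread 1.6.4), which were not normalized. Multi-mapped and shared reads are a limit of such counts, and the strand setting is not given in the sources used here. The deposited counts were tested with edgeR 4.0.16 in R 4.3.3 (quasi-likelihood test with robust dispersion, TMM scaling, filterByExpr, Benjamini-Hochberg adjustment over 18438 genes, threshold 0.05), 3 RbpjΔEC against 3 CTRL libraries, with no replicate block. DESeq2 1.42.0 was run on the same genes as an alternative, without outlier or independent filtering. Both were tested on simulated counts. Intervals are 95% intervals of the fit. No pair of libraries was identical (0 pairs).

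Exon lengths, neighbours and UTRs came from GENCODE M21, an earlier release on the same assembly as the M25 used for the counts, matched by gene identifier. Promoters came from RefSeq. Proteins were not analysed here. The members and lists were chosen with earlier results of these data known. Genes were named by rule: the members, Rbpj, Hey1 and Jag1, up to 4 genes of smallest p per list plus every called one, the neighbours, and the 2 nearest genes in pattern per member. Some genes that this rule names are not reported here. Ptprc, Cdh5, Lrp2, Aqp2, Slc12a1, Umod, Podxl, Kcnj8 and the called markers were added after their values were seen. Alternatives were other scalings, other filters, DESeq2, a replicate block and leaving out each library.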

Additional observations from a re-analysis of the deposited data

How the results depend on the processing

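Direction held for Fos, Fosb, Fosl2, Jun, Junb and Jund in every alternative run, while Fosl1, which was never called, turned to -0.13 without CTRL 3. Calls were less stable. Over all genes 209 were called, 1436 with no filter on low counts and 944 by DESeq2, and between 21 and 700 with 1 library left out. Of the 7 members 2 were called, 4 with no filter, 4 by DESeq2, and 0 to 4 with 1 library left out. Jun passed with scaling by library size alone (0.43), with no filter (0.40) and by DESeq2 (0.39), Fosb by DESeq2 (0.88) and Fosl2 with no filter (0.35). Without 1 library in turn, log2 fold changes ranged from 0.41 to 0.55 for Fos, 0.76 to 1.10 for Fosb, -0.13 to 0.32 for Fosl1, 0.31 to 0.46 for Jun and 0.41 to 0.61 for Junb. Fos and Junb lost their call without CTRL 1, CTRL 3, RbpjΔEC 1 or RbpjΔEC 2; Jun and Fosb gained one without CTRL 2 or RbpjΔEC 3. The cause was not tested. The calls of Jag1, Cd68, Acta2, Myh11, Rgs5 and Pdgfra were each lost without 3 or 4 of the 6 libraries in turn. Myh11 (adjusted p = 0.0506) and Rgs5 (0.0544) also lost theirs with a minimum mean of 1 CPM, and Rgs5 with scaling by library size alone (0.0553). Jund could not be tested with a minimum mean of 1 CPM. The labels link samples of the same number by that number alone. Their deviations from the group means correlated at 0.05, -0.02 and 0.02, and not every library correlated best with its own number. Deviations centred within groups of 3 cannot exclude shared handling of such samples. With the replicate block 344 genes and 4 members were called, with Fosb at 0.89 and Jun at 0.39 past the threshold. Depth limits Fosl1 and Jund in part, with counting errors of 0.17 and 0.21 log2 units within standard errors of 0.36 and 0.39, against counting errors of at most 0.0124 for the other members.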
